A study of Mus musculus with 8 samples.

Results

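The genes described here are 42 genes of the endoplasmic reticulum (ER): those that bring secretory and membrane proteins into it, fold them, attach sugars to them, sense misfolding and remove what fails to fold. They were taken from a list of gene symbols, and every probe set whose platform annotation gave exactly 1 of these symbols was used, 105 of 45037 probe sets that are not array controls. Of the 42 genes, 41 had such a probe set, out of 18193 genes with a symbol of their own on the array. Sec61g, the small gamma subunit of the translocon, was the exception, since its probe set is shared with predicted genes. RNA came from monocytes of 12-week-old C57Bl/6 mice, sorted as Gr1hi (Ly6Chi) or Gr1lo (Ly6Clo) cells. Ly6Chi cells are known as the classical, inflammatory subset and Ly6Clo cells as the nonclassical, patrolling subset. Leukocytes of 5 mice were pooled for each sort, and 4 sorts gave 4 samples of each subset, each on 1 Affymetrix mouse 3' expression array. The animals had no treatment or genetic change named in the labels, and a sample is a pool, so no value belongs to a single mouse. Nothing states whether the Ly6Chi and Ly6Clo samples of 1 number came from the same pool.

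A protein bound for the cell surface, the lysosome or secretion is threaded through the Sec61 channel of the ER while the signal peptidase removes its leader peptide and the oligosaccharyltransferase adds an N-glycan. Chaperones such as BiP (encoded by Hspa5), the lectins calreticulin and calnexin, and the protein disulfide isomerases then fold it, and a protein that cannot fold is drawn back to the cytosol for degradation. When unfolded protein builds up, the sensors PERK (Eif2ak3), IRE1 alpha (Ern1) and ATF6 start the unfolded protein response: PERK slows translation and raises ATF4 and CHOP (Ddit3), IRE1 splices Xbp1 mRNA, and cleaved ATF6 moves to the nucleus with XBP1 to induce chaperone genes. Much of this control lies in translation, splicing and proteolysis, which an expression array does not read.

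The sequence by which ATF6 and XBP1 are known to act on chaperone genes, the ER stress response element (ERSE), is shown first because it sets apart a group of these genes without using their measured values. It was searched as CCAAT and CCACG separated by 9 bases, on either strand, in the RefSeq promoter windows of mouse build GRCm38.p6, which run from 250 bases before to 50 bases after each start. Of 32851 windows 39 held it (0.119%), and it was found for 7 of the 35 ER genes that had a window. All 7 were among the 13 folding genes with a window. In the sequences below, 5′ to 3′ on the strand of the gene with 20 bases on each side, the capitals mark CCAAT and CCACG, or ATTGG and CGTGG where the element lies on the opposite strand.
Hspa5, chr2:34772005-34772063 (+ strand): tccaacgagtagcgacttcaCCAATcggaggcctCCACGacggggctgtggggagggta
Hsp90b1, chr10:86705618-86705676 (- strand): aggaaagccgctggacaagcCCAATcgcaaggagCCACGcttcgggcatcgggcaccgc
Calr, chr8:84847055-84847113 (- strand): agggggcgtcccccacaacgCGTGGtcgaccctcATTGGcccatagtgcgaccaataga
Canx, chr11:50325780-50325838 (- strand): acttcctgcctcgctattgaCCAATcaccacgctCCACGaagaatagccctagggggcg
Pdia6, chr12:17266471-17266529 (+ strand): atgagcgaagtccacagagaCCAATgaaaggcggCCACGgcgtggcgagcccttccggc
Dnajc3, chr14:118937807-118937865 (+ strand): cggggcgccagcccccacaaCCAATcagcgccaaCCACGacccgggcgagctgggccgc
Creld2, chr15:88819500-88819558 (+ strand): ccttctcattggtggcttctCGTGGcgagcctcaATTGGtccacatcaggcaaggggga

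The element began 65 bases before the start of Hspa5, 98 before Pdia6, 105 before Dnajc3, 126 before Creld2, 145 before Canx, 162 before Calr and 212 before Hsp90b1. The window of Hsp90b1 held a second match on the opposite strand, which began 107 bases before the start. A related element, ERSE-II, searched as ATTGG and CCACG separated by 1 base, was held by 12 windows (0.0365%), among them those of Herpud1 and Dnajb11. Herpud1 is the classical example of a gene with this element, whose letters are the capitals here.
Herpud1, chr8:94386357-94386407 (+ strand): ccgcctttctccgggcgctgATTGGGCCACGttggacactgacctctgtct

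In Dnajb11 the match lay past the start. The XBP1 site TGACGTGG was held by 222 windows (0.676%) and by none of the ER genes, and no window of an ER gene held both ERSE and ERSE-II. A match describes letters in a window and says nothing of whether a factor bound there.

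Values are probe set intensities on the log2 scale, and signed differences are Ly6Clo minus Ly6Chi. A gene is represented by its brightest tested probe set, and "called" means an adjusted p under 0.05 in limma's moderated test, adjusted by the method of Benjamini and Hochberg across the 22831 probe sets tested. Levels of different probe sets are not comparable with each other. Array medians in the deposited table lay between 80.6 and 83.1 on the linear scale. How the table was normalized is not known, so these medians cannot show whether the arrays were alike before that step. The number of arrays limits the precision. All 10 monocyte markers examined lay above the table median (log2 6.36) in all 8 arrays. In sorted bulk RNA a smaller share of expressing cells and less RNA in each cell cannot be told apart.

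Of the 41 measured ER genes, 17 were called (41.5%), where 32.5% of all 11546 genes tested were. 11 were higher in Ly6Chi (18.5% of all genes were) and 6 were higher in Ly6Clo (14.1% of all genes were). Those higher in Ly6Chi were 5 genes of translocation, the 3 stress sensors, the isomerase P4hb, the glycosyltransferase subunit Rpn1 and the degradation lectin Edem1. Those higher in Ly6Clo were the stress factors Ddit3 and Atf4, the chaperones Calr and Hspa5, the glycosyltransferase subunit Stt3b and the derlin Derl2. Of the sensors, 1 in place of 3 was called with averaged or least variable probe sets, and the call of Atf6 was lost in 12 of 21 alternative settings. The widest difference was 1.60-fold, for Ddit3, and the median size was 0.17 on the log2 scale, beside 0.13 over all genes tested. The median signed difference was -0.02, beside -0.01 over all genes. For 17 of 41 genes every array of one subset lay above every array of the other, where 33.9% of all genes had no overlap. At the level of probe sets, 94 of the 105 passed the filter and 35 of them were called, 21 higher in Ly6Chi and 14 higher in Ly6Clo. Among every tested probe set of the array the called share was 31.1%, 15.9% toward Ly6Chi and 15.2% toward Ly6Clo, and 31.8% had no overlap. All 41 represented genes lay above the table median in all 8 arrays, so none passed the filter through 1 subset alone. The count of genes higher in Ly6Chi dropped to 7 with both samples numbered 1 left out. Members and the wider lists below were chosen with earlier results of these data known. The called shares of roles and lists are therefore descriptions and not tests.

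**Figure D1:**
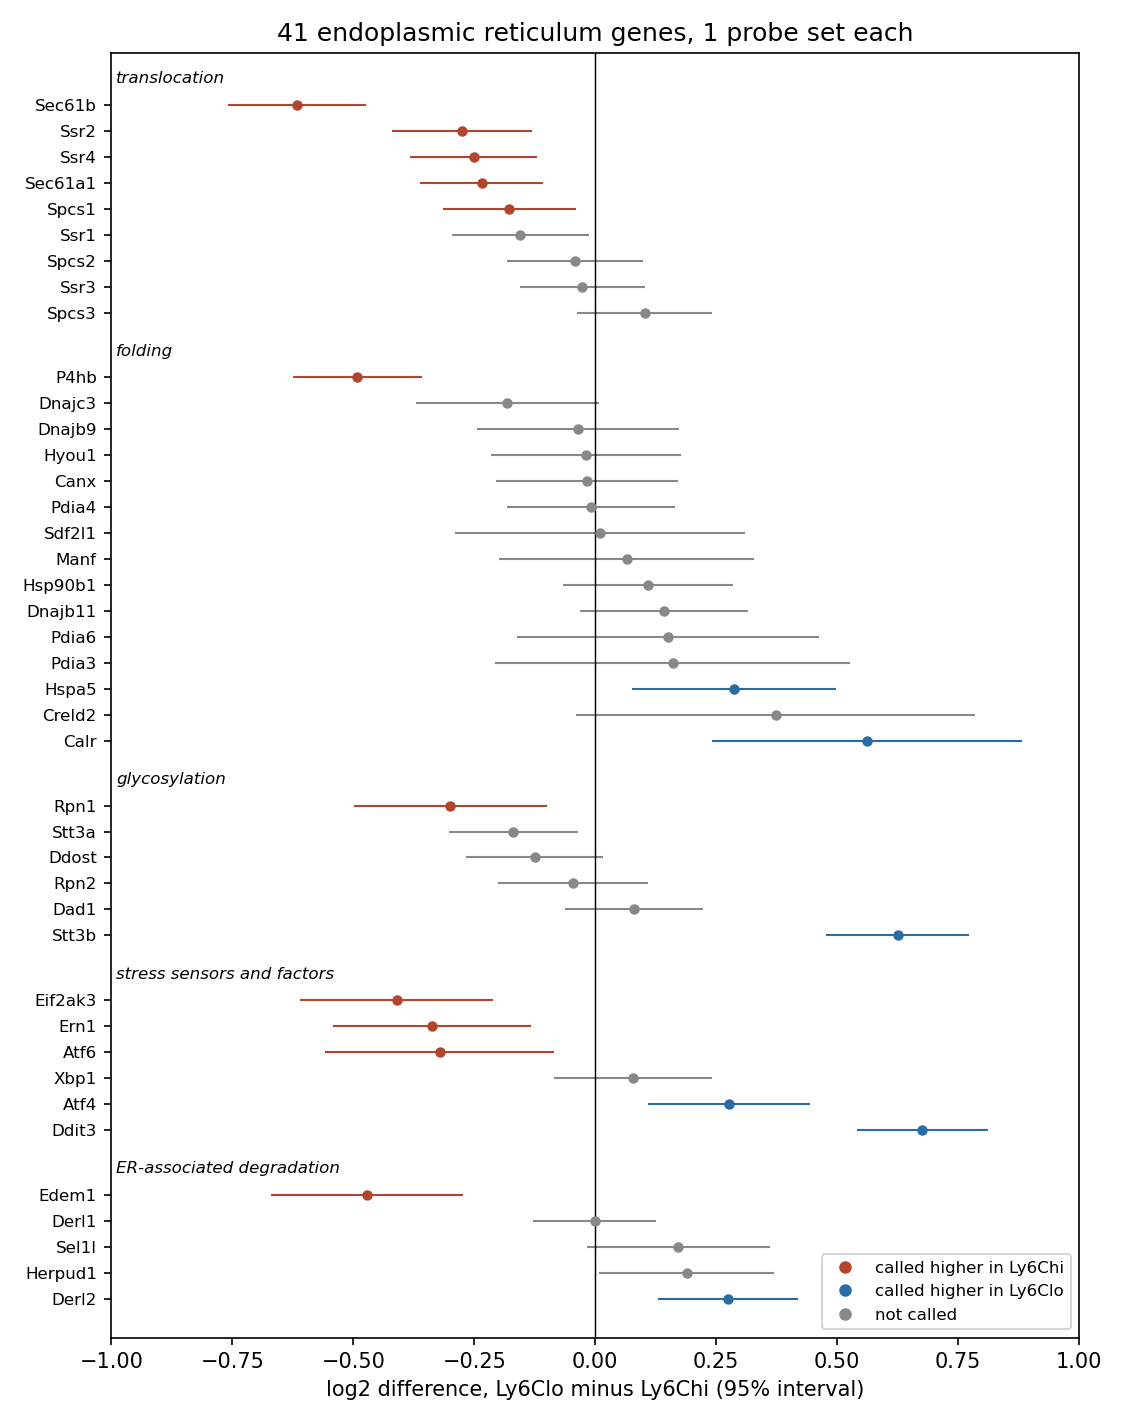
Log2 difference, Ly6Clo minus Ly6Chi, of the 41 represented ER genes by role; points are estimates from 4 arrays per subset and bars are 95% limma intervals, coloured by call. The 11 genes called higher in Ly6Chi lie left of 0, the 6 called higher in Ly6Clo lie right of it, and Ddit3 (0.68) and Sec61b (-0.62) are the outermost.

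Plasma cells are known for abundant ER, so markers of other cells were read beside these results. Of all genes tested, 18.5% were called toward Ly6Chi and 14.1% toward Ly6Clo. Of 17 measured B and plasma cell markers, 3 were higher in Ly6Chi, 2 higher in Ly6Clo, 7 not called and 5 not tested; their summed intensity was 2504 to 3375 in Ly6Chi and 2358 to 2719 in Ly6Clo. In all arrays 8 of the 17 lay above the table median, among them the plasma cell genes Irf4 (mean 9.36 in Ly6Chi and 8.24 in Ly6Clo, called), Prdm1 (7.83 and 7.45, not called), Sdc1 and Mzb1, while Jchain, Tnfrsf17 and Ebf1 lay below it. The 12 tested markers differed in both directions, from -1.14 to 1.27. Derl3 (-0.002) and Fkbp11 (0.11), neither called, are in this marker list and also in the wider ER lists below. Markers of neutrophils and their progenitors moved with the genes higher in Ly6Chi: by limma 7 of 15 had a call toward Ly6Chi and 0 toward Ly6Clo (8 and 0 at an unadjusted p under 0.05), and their sum was 3948 to 4717 in Ly6Chi and 1831 to 2229 in Ly6Clo. Of 9 plasmacytoid dendritic cell markers 3 were higher in Ly6Chi, with sums of 2149 to 2689 against 1598 to 1697. Of the neutrophil and progenitor markers 3 lay above the table median in all arrays and 1, Cxcr2, below it in all. Mmp8 had a mean of 10.40 in Ly6Chi and 6.28 in Ly6Clo, Prtn3 8.52 and 5.87, and Csf3r 10.30 and 9.74. Of the plasmacytoid dendritic cell markers 5 lay above the table median in all arrays, among them Bst2 (9.83 in Ly6Chi and 8.89 in Ly6Clo), and 1, Pacsin1, below it in all. Of 11 NK cell markers 2 were called higher in Ly6Clo, 3 were not called and 6 were not tested. Their sums were 1059 to 1201 in Ly6Chi and 1401 to 1723 in Ly6Clo. Of the NK cell markers, 3 lay above the table median in all arrays and 3 (Eomes, Tbx21 and Klre1) below it in all. In limma, none of 6 tested T cell markers and none of 10 platelet markers was called, with 1 in each list at an unadjusted p under 0.05. The 10 monocyte markers summed to 75666 to 78124 in Ly6Chi and 79224 to 81595 in Ly6Clo. Each sum is on the linear scale and led by its brightest probe sets, such as Mmp8 among the neutrophil markers. Sums of different lists therefore cannot be compared with each other or read as amounts of cells. The part of other cells in the differences described next was not tested.

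The called genes of translocation were all higher in Ly6Chi. By limma 5 of the 9 measured genes had a call toward Ly6Chi (55.6%, against 18.5% of all genes) and 0 toward Ly6Clo, where an unadjusted p under 0.05 gave 6 and 0. Of the differences 8 of 9 were below 0, and their median was -0.18. Among the 22 tested probe sets of these genes 7 were called toward Ly6Chi (31.8%, against 15.9% of all probe sets) and 0 toward Ly6Clo. Sec61b, the beta subunit of the protein-conducting channel, stood at 12.31, 12.35, 12.51 and 12.37 in the Ly6Chi arrays and at 11.76, 11.84, 11.71 and 11.78 in the Ly6Clo arrays, numbered 1 to 4 here and below. The subsets were far apart, with every Ly6Chi array above every Ly6Clo array, a 1.53-fold difference (log2 -0.62, SE 0.06, adjusted p = 2.1e-05). Ssr2, a subunit of the translocon-associated protein complex that helps some chains enter the channel, read 9.29, 9.32, 9.32 and 9.11 in Ly6Chi and 8.98, 9.04, 8.97 and 8.96 in Ly6Clo. It was 1.21-fold higher in Ly6Chi without overlap (log2 -0.27, SE 0.07, adjusted p = 0.0074). Ssr4, another subunit of that complex, read 11.39, 11.38, 11.49 and 11.45 against 11.14, 11.18, 11.24 and 11.13 and again did not overlap (log2 -0.25, SE 0.06, adjusted p = 0.0068). Its other 2 tested probe sets were not called, with differences of -0.11 and 0.05, and the call of the gene was lost with the average or the least variable of its probe sets.

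Sec61a1, which forms the channel itself, was 1.18-fold higher in Ly6Chi (log2 -0.24, SE 0.06, adjusted p = 0.0083). All 6 of its probe sets leaned that way, from -0.24 to -0.10, and 3 of them were called. The probe set shared by Sec61g and 2 predicted genes, which is outside the list, also differed toward Ly6Chi (log2 -0.32, SE 0.09, adjusted p = 0.019). Spcs1, a small signal peptidase subunit, was called at the edge of the threshold (log2 -0.18, SE 0.06, adjusted p = 0.0499), and its call was lost when any array other than Ly6Clo replicate 2 was left out (adjusted p = 0.064 to 0.13). Its second tested probe set differed by -0.16 (adjusted p = 0.070). The other signal peptidase subunits Spcs2 and Spcs3 and the complex members Ssr1 and Ssr3 were not called, with differences of -0.04, 0.10, -0.15 and -0.03. Ssr1 had no overlap between subsets but an adjusted p of 0.093.

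A second list of 26 translocation genes, among them the signal recognition particle, the Sec62 and Sec63 partners of the channel and the ER membrane complex, had 25 measured genes, 5 of them higher in Ly6Chi and 1 higher in Ly6Clo. This is 24.0% called, below the 32.5% over all genes, and their median was -0.05. Sec11c, a catalytic signal peptidase subunit, was 1.47-fold higher in Ly6Chi (log2 -0.55, SE 0.07, adjusted p = 5.5e-05), and Tram2 1.25-fold. Emc2, of the ER membrane complex that inserts membrane proteins, was 1.18-fold higher in Ly6Clo.

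Folding genes had the lowest share of calls among the 5 roles. Of 15 measured genes, 1 was called toward Ly6Chi, 2 toward Ly6Clo and 12 not at all, where 32.5% of all genes were called, with a median difference of 0.06. P4hb, the archetypal protein disulfide isomerase, read 11.70, 11.70, 11.78 and 11.70 in Ly6Chi and 11.20, 11.33, 11.19 and 11.20 in Ly6Clo. These are 2 tight groups with a wide gap, 1.41-fold higher in Ly6Chi (log2 -0.49, SE 0.06, adjusted p = 7.2e-05). Calr, the calcium-binding lectin chaperone, read 10.50, 10.57, 10.39 and 9.90 in Ly6Chi and 10.93, 11.18, 10.67 and 10.82 in Ly6Clo. All Ly6Clo arrays lay above all Ly6Chi arrays, with Ly6Chi replicate 4 the lowest by a margin, and the gene was 1.48-fold higher in Ly6Clo (log2 0.56, SE 0.15, adjusted p = 0.012). All 3 of its probe sets were called in this direction, from 0.44 to 0.56.

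Hspa5, the chaperone BiP and the common readout of ER stress, read 11.92, 12.07, 12.17 and 11.74 in Ly6Chi and 12.24, 12.36, 12.11 and 12.34 in Ly6Clo. The subsets overlapped, since Ly6Chi replicate 3 lay above Ly6Clo replicate 3. The gene was called 1.22-fold higher in Ly6Clo (log2 0.29, SE 0.10, adjusted p = 0.040), but the call was lost without Ly6Chi replicate 1 or 4 or Ly6Clo replicate 1, 2 or 4 (adjusted p = 0.070 to 0.11, differences from 0.21 to 0.30). Its second probe set differed by 0.23 (adjusted p = 0.098) and the dimmest by 0.00 (adjusted p = 0.98). Hsp90b1, the ER paralogue of HSP90 known as GRP94, read 10.95, 11.13, 11.16 and 10.98 in Ly6Chi and 11.09, 11.34, 11.06 and 11.16 in Ly6Clo. It overlapped and was not called (log2 0.11, 95% interval -0.07 to 0.28, adjusted p = 0.36). The second probe set of Hsp90b1 differed by 0.28 and was not called either (95% interval 0.02 to 0.53, adjusted p = 0.0999).

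Of the other folding genes, none was called through its brightest probe set. The lectin chaperone Canx differed by -0.02 (95% interval -0.20 to 0.17), the isomerases Pdia3, Pdia4 and Pdia6 by 0.16, -0.01 and 0.15, and the large HSP70-like chaperone Hyou1 by -0.02. Of the J-domain co-chaperones that work with BiP, Dnajb9 differed by -0.04 and Dnajb11 by 0.14, while Dnajc3 differed by -0.18 (adjusted p = 0.14). The brightest probe set of Dnajc3 was the only one of its 4 tested that was not called: the others differed by -0.24 to -0.28 toward Ly6Chi (adjusted p = 0.012 to 0.028). The small stress-induced proteins Sdf2l1, Manf and Creld2 differed by 0.01, 0.06 and 0.37. Creld2 had the widest interval of all members (-0.04 to 0.79), which takes in the difference of Calr.

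Of the 7 folding genes with an ERSE in the window, 2 were called, Calr and Hspa5, both higher in Ly6Clo, and 5 were not, where 32.5% of all genes were called, so the share is near that of all genes. The call of Hspa5 was lost in 10 of its 20 alternative settings. The median difference of the 7 was 0.15. Over all windows 37 genes held the element, and 11 of those outside the ER list were tested. Among these, 2 were called, both higher in Ly6Chi: Pan2 (-0.22) and the ER oxidase Ero1b (log2 -0.49, SE 0.08, adjusted p = 7.6e-04). Called genes with the element thus lay in both directions.

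Within a subset, the same arrays were often the highest or the lowest. Over all 41 ER genes Ly6Clo replicate 2 was the highest Ly6Clo array for 28, Ly6Clo replicate 3 the lowest for 22 and Ly6Chi replicate 4 the lowest Ly6Chi array for 23. Ly6Chi replicate 4 was the lowest for 6 of 6 glycosylation genes and 5 of 9 translocation genes, and Ly6Clo replicate 3 for 4 of 6 glycosylation and 4 of 5 degradation genes, so the pattern was not limited to folding genes. Among these, Ly6Clo replicate 2 was the highest Ly6Clo array for 13 of 15, where it was the highest for 37.1% of all genes tested. Ly6Clo replicate 3 was the lowest for 12 of 15 (28.6% of all genes). In Ly6Chi, replicate 4 was the lowest for 9 of 15 and the highest for none, against 28.0% and 22.3% of all genes. Averaged over the 15 genes, Ly6Clo replicate 2 lay 0.18 above the mean of its subset and Ly6Clo replicate 3 lay 0.17 below it (-0.17), and Ly6Chi replicate 4 lay 0.18 below its own (-0.18), while the same averages over all genes lay between -0.02 and 0.03. Creld2 ran from 7.77 to 8.71 among Ly6Chi arrays and Pdia3 from 9.89 to 10.64 among Ly6Clo arrays. P4hb was tighter, with Ly6Chi arrays between 11.70 and 11.78.

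**Figure D2:**
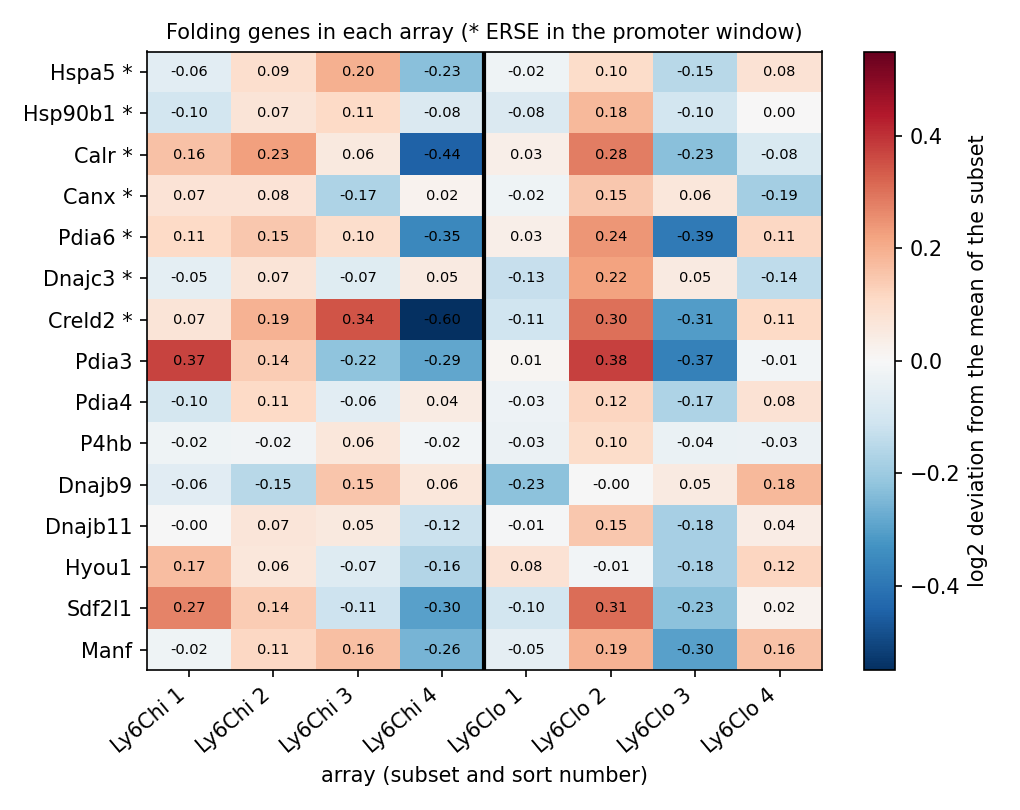
Log2 deviation of each array from the mean of its own subset for the 15 folding genes (rows, * for an ERSE in the promoter window) in the 4 Ly6Chi and 4 Ly6Clo arrays (columns); red is above and blue below the subset mean. The columns of Ly6Chi replicate 4 and Ly6Clo replicate 3 are mostly blue and that of Ly6Clo replicate 2 is mostly red.

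A second list of folding genes, 34 oxidases, prolyl isomerases, thioredoxin-like proteins and glucosidases, had 31 tested genes, with a median of -0.11. Of these 13 were higher in Ly6Chi and 2 higher in Ly6Clo (48.4% called). Of all genes 32.5% were called, 18.5% toward Ly6Chi and 14.1% toward Ly6Clo. Prdx4, the ER peroxiredoxin that uses the hydrogen peroxide made in disulfide formation, read 9.63, 9.71, 9.47 and 9.52 in Ly6Chi and 8.25, 8.20, 8.02 and 8.00 in Ly6Clo. The gap was far wider than in any gene of the main list, 2.76-fold higher in Ly6Chi (log2 -1.47, SE 0.08, adjusted p = 1.2e-07). The ER protein Erp29 was 1.78-fold higher in Ly6Chi (adjusted p = 4.4e-06). P4ha1, the catalytic subunit of prolyl 4-hydroxylase whose partner is P4hb, went the opposite way and was 1.71-fold higher in Ly6Clo (log2 0.78, SE 0.08, adjusted p = 1.4e-05), and the thioredoxin-like membrane protein Tmx1 was 1.20-fold higher there.

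Among N-glycosylation genes, Stt3b was higher in Ly6Clo and Rpn1 higher in Ly6Chi. The oligosaccharyltransferase exists in a form built around Stt3a, which acts on chains as they pass the channel, and a form built around Stt3b, which also acts on sites that the first form skipped. Of the 6 measured subunits, 1 was called toward Ly6Chi and 1 toward Ly6Clo (33.3% called, near the 32.5% of all genes), and the median was -0.09. Stt3b read 10.56, 10.53, 10.53 and 10.48 in Ly6Chi and 11.13, 11.16, 11.29 and 11.02 in Ly6Clo. The Ly6Chi arrays were nearly identical and all lay below the Ly6Clo arrays, a 1.54-fold difference toward Ly6Clo (log2 0.62, SE 0.07, adjusted p = 2.6e-05). Its second probe set gave 1.63-fold (adjusted p = 7.2e-06). Stt3a read 10.56, 10.52, 10.47 and 10.45 in Ly6Chi and 10.41, 10.28, 10.28 and 10.34 in Ly6Clo. It did not overlap but leaned the other way and was just outside the threshold (log2 -0.17, 95% interval -0.30 to -0.04, adjusted p = 0.054).

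The difference between both catalytic subunits within arrays is given as a description, chosen after their values were seen and with no test, since each gene already separated the subsets in its own direction. Stt3b minus Stt3a, in log2 units of these probe sets, was 0.03 ± 0.02 in Ly6Chi and 0.82 ± 0.15 in Ly6Clo (SD, n = 4 each), a shift of 0.79. With the other probe sets of these genes the shift was 0.74 to 0.88. A second list of 34 glycosylation genes holds subunits known to belong to 1 form only, which were also picked out after their values were seen. Ostc, a subunit of the Stt3a form, read 10.66, 10.70, 10.72 and 10.58 in Ly6Chi and 10.29, 10.44, 10.21 and 10.36 in Ly6Clo and was called higher in Ly6Chi (log2 -0.34, SE 0.07, adjusted p = 0.0024). Krtcap2, also of the Stt3a form and 1 of the genes with an ERSE-II in the window, was 1.36-fold higher in Ly6Chi (log2 -0.45, SE 0.08, adjusted p = 0.0011). Magt1, the oxidoreductase subunit of the Stt3b form, read 10.68, 10.84, 10.75 and 10.83 in Ly6Chi and 11.16, 11.27, 11.22 and 11.18 in Ly6Clo and was 1.35-fold higher in Ly6Clo (log2 0.43, SE 0.06, adjusted p = 2.4e-04). Tusc3, its alternative in the same form, did not follow: it leaned toward Ly6Chi and was not called (log2 -0.19, adjusted p = 0.065).

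Subunits shared by both forms showed 1 call. Rpn1 read 11.26, 11.15, 11.10 and 10.88 in Ly6Chi and 10.78, 10.95, 10.66 and 10.80 in Ly6Clo, which overlapped through Ly6Chi replicate 4, and was 1.23-fold higher in Ly6Chi (log2 -0.30, SE 0.09, adjusted p = 0.026). Of its 6 probe sets 5 were called in this direction by nearly the same amount, -0.32 to -0.30, and the dim sixth differed by -0.01. The call was lost without Ly6Chi replicate 1 or 2 or Ly6Clo replicate 1, 3 or 4 (adjusted p = 0.056 to 0.074, differences from -0.30 to -0.25). Rpn2, Ddost and Dad1 were not called, at -0.05, -0.13 and 0.08.

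**Figure D3:**
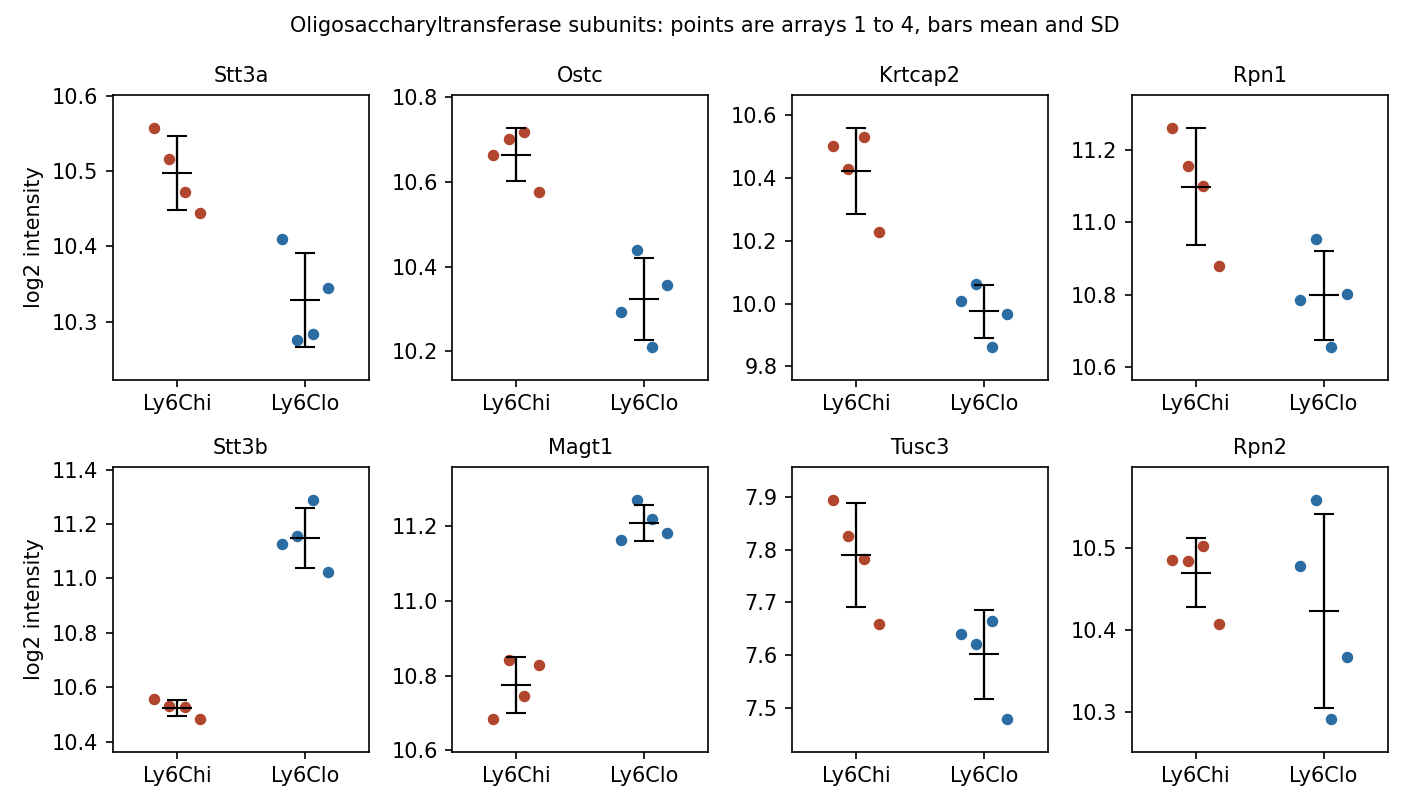
Log2 intensity of 8 oligosaccharyltransferase subunits in each array (points, arrays 1 to 4 from left to right within a subset) with mean and SD (bars, n = 4); the top row holds Stt3a, its partners Ostc and Krtcap2, and the shared Rpn1, and the bottom row Stt3b, its partners Magt1 and Tusc3, and the shared Rpn2. Stt3b and Magt1 are higher in all Ly6Clo arrays than in any Ly6Chi array, and Ostc and Krtcap2 are lower.

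In the whole second glycosylation list, which also holds the enzymes that build the lipid-linked sugar donor, 33 genes were tested, with a median of -0.05. Of these 6 were higher in Ly6Chi and 3 higher in Ly6Clo (27.3% called, below the 32.5% of all genes). Beside Krtcap2, the dolichol-pathway reductase Srd5a3 led toward Ly6Chi at 1.39-fold (adjusted p = 3.1e-04). Beside Magt1, the second gene toward Ly6Clo was Alg13, of the sugar-transfer steps, at least 1.20-fold, since its Ly6Chi mean lay below the table median that stands in for background. That call was lost without Ly6Chi replicate 1, 3 or 4 or Ly6Clo replicate 1 or 2 (adjusted p up to 0.089).

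Stress sensors and the factors below them were called in opposite directions. All 3 sensors were called higher in Ly6Chi, and Atf4 and Ddit3 were called higher in Ly6Clo, so 5 of 6 were called (83.3%, against 32.5% of all genes). Of the 15 tested probe sets of these genes 6 were called, 3 in each direction (40%, against 31.1% of all probe sets). Eif2ak3, the kinase PERK, read 9.11, 8.93, 8.88 and 9.16 in Ly6Chi and 8.45, 8.58, 8.81 and 8.60 in Ly6Clo. It did not overlap and was 1.33-fold higher in Ly6Chi (log2 -0.41, SE 0.09, adjusted p = 0.0046). Ern1, the kinase and nuclease IRE1 alpha, read 10.33, 10.27, 10.45 and 10.55 in Ly6Chi and 9.85, 10.01, 10.16 and 10.23 in Ly6Clo, with the lowest Ly6Chi array just above the highest Ly6Clo array, a 1.26-fold difference (log2 -0.34, SE 0.09, adjusted p = 0.016). Atf6, the membrane-bound transcription factor, read 9.97, 9.78, 9.60 and 9.86 in Ly6Chi and 9.27, 9.72, 9.57 and 9.35 in Ly6Clo, which overlapped (log2 -0.32, SE 0.11, adjusted p = 0.041).

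The sensor calls rest on the brightest probe set of each gene. The other tested probe sets, 1 for Eif2ak3 and 2 each for Ern1 and Atf6, were dimmer and differed by -0.08 to 0.02, with none called. The call of Atf6 was lost without Ly6Chi replicate 1, 2 or 4 or Ly6Clo replicate 1 or 4 (adjusted p = 0.073 to 0.12), and without both samples numbered 1 only the call of Eif2ak3 was kept (adjusted p = 0.038, difference -0.33). Ly6Clo replicate 1 was the lowest Ly6Clo array for all 6 genes of this role, where it was the lowest for 26.5% of all genes. For Xbp1 (12.4439 against 12.4444 in Ly6Clo replicate 3) and Ddit3 (8.39 against 8.41) this was nearly a tie. Some marker sums of other cells stood high in Ly6Clo replicate 1. The platelet sum was 7786 where the other 7 arrays had 2620 to 6086, and the NK cell sum was 1723, the highest of the 8 arrays. The B and plasma cell sum (2719) and the neutrophil sum (2229) were the highest among Ly6Clo arrays. The T cell sum (1176, against 1200 in Ly6Clo replicate 4) and the plasmacytoid dendritic cell sum (1696, against 1697 in Ly6Clo replicate 2) were not. Ly6Chi replicate 1 likewise had the highest platelet (6086), NK cell (1201), B and plasma cell (3375) and neutrophil (4717) sums among Ly6Chi arrays. In it 2 of the 6 genes of this role were the lowest of the Ly6Chi arrays and 1, Atf6 (9.97), the highest. The part of these cells in the sensor values was not tested.

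Ddit3, the proapoptotic factor CHOP, read 7.81, 7.68, 7.83 and 7.75 in Ly6Chi and 8.39, 8.50, 8.41 and 8.47 in Ly6Clo. Both groups were tight and far apart, 1.60-fold higher in Ly6Clo (log2 0.68, SE 0.06, adjusted p = 6.5e-06), the largest difference among the ER genes. Atf4, the factor whose translation rises when PERK or a related kinase acts, read 10.04, 10.09, 10.27 and 10.27 in Ly6Chi and 10.32, 10.51, 10.43 and 10.51 in Ly6Clo without overlap (log2 0.28, SE 0.08, adjusted p = 0.016). Its second tested probe set gave a difference of 0.27 (adjusted p = 0.016). The call of Atf4 missed the threshold by little without Ly6Chi replicate 2 or Ly6Clo replicate 4 (adjusted p = 0.051 in each case). Xbp1, the factor made active by splicing, read 12.22, 12.44, 12.54 and 12.39 in Ly6Chi and 12.44, 12.55, 12.44 and 12.45 in Ly6Clo. The values overlapped and none of its 4 probe sets was called by limma or had an unadjusted p under 0.05 (log2 0.08, 95% interval -0.09 to 0.24, adjusted p = 0.49). No probe set here was examined for the spliced form.

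**Figure D4:**
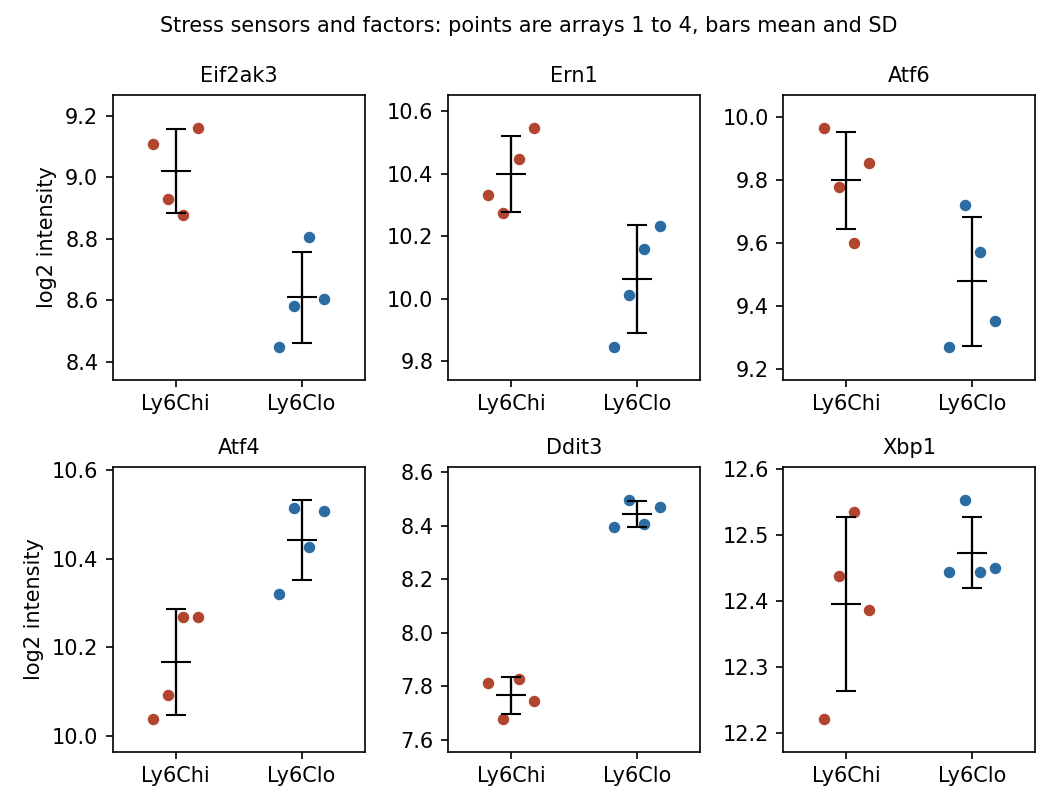
Log2 intensity of the 3 sensors (top) and of 3 transcription factors below them (bottom) in each array (points, arrays 1 to 4 from left to right within a subset) with mean and SD (bars, n = 4). Eif2ak3 and Ern1 have every Ly6Chi array above every Ly6Clo array, Atf4 and Ddit3 have the reverse, and Atf6 and Xbp1 overlap.

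A further list of 32 genes around the sensors, the other kinases of eukaryotic initiation factor 2 alpha and the integrated stress response had 27 tested genes, with a median of 0.09. Of these 11 were called toward Ly6Clo and 4 toward Ly6Chi (55.6% called). Of all genes 32.5% were called, 14.1% toward Ly6Clo and 18.5% toward Ly6Chi. The list also holds genes of cell death and other stress responses. Among these, Nfe2l2, Nfe2l1, Bbc3, Bak1, Tmbim6 and Map3k5 were called toward Ly6Clo, and Bok and Traf2 were not called. Of the other kinases, Eif2ak2 (-0.55) was called toward Ly6Chi, Eif2ak4 (0.30) toward Ly6Clo, and Eif2ak1 (-0.15) was not called. Ddit4, an inhibitor of mTORC1 signalling induced by many stresses, read 8.38, 8.56, 8.68 and 8.21 in Ly6Chi and 10.16, 10.57, 11.05 and 11.09 in Ly6Clo. It was 4.78-fold higher in Ly6Clo (log2 2.26, SE 0.19, adjusted p = 3.0e-06). Nupr1, a stress-induced nuclear protein, was 1.65-fold higher in Ly6Clo (adjusted p = 2.4e-06). Named after their values were seen, the phosphatase subunit Ppp1r15a (GADD34) differed by 0.47 and the proapoptotic Bbc3 (PUMA) by 0.50, both called higher in Ly6Clo. In the other direction Atf3, often grouped with Atf4 and Ddit3 as a stress factor, read 9.65, 9.55, 9.46 and 9.72 in Ly6Chi and 8.64, 8.88, 8.81 and 8.79 in Ly6Clo and was 1.77-fold higher in Ly6Chi (log2 -0.82, SE 0.08, adjusted p = 7.9e-06). Creb3l2, an ER-bound factor that raises secretory genes, was 1.76-fold higher in Ly6Chi (adjusted p = 8.2e-05). Among classic ATF4 targets, Trib3 and Asns did not pass the filter on dim signal and Chac1 was not called.

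Among genes of ER-associated degradation, Edem1 was higher in Ly6Chi and Derl2 higher in Ly6Clo. Of 5 measured genes, 1 was called toward Ly6Chi and 1 toward Ly6Clo, a share near the 32.5% of all genes (18.5% and 14.1% by direction), with a median of 0.17. Edem1, the lectin that hands misfolded glycoproteins to the degradation channel, read 10.23, 10.17, 10.24 and 10.00 in Ly6Chi and 9.58, 9.86, 9.51 and 9.80 in Ly6Clo. It did not overlap and was 1.39-fold higher in Ly6Chi (log2 -0.47, SE 0.09, adjusted p = 0.0018), with the second probe set at -0.40. Derl2, a channel-forming derlin, read 8.9997, 8.92, 8.96 and 8.81 in Ly6Chi and 9.26, 9.25, 9.11 and 9.17 in Ly6Clo, without overlap, and was 1.21-fold higher in Ly6Clo (log2 0.27, SE 0.07, adjusted p = 0.0075). Its second, dimmer probe set differed by 0.14 and was not called. Sel1l, the scaffold of the degradation complex, was not called through its brightest probe set (log2 0.17, adjusted p = 0.16), but its other 4 probe sets were, all higher in Ly6Clo by 0.22 to 0.49 (adjusted p = 6.2e-04 to 0.037). Herpud1, a stress-induced adaptor of that complex, differed by 0.19 without overlap and was not called (adjusted p = 0.11), and Derl1 differed by -0.001 (95% interval -0.13 to 0.13).

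The wider degradation list had few calls: by limma, 2 of 29 tested genes were called, both higher in Ly6Clo (6.9%, against 32.5% of all genes), where an unadjusted p under 0.05 gave 5 higher in Ly6Clo and 2 higher in Ly6Chi. These were the ubiquitin-conjugating enzymes Ube2g2, at 1.73-fold (log2 0.79, SE 0.07, adjusted p = 3.6e-06), and Ube2g1, at 1.25-fold. Genes of transport between ER and Golgi had 48 tested members, with a median of -0.10. Of these 12 were higher in Ly6Chi and 6 higher in Ly6Clo (37.5% called, near the 32.5% of all genes). The coat subunit Sec24d (1.62-fold) and the cargo receptor Tmed10 (1.48-fold) led toward Ly6Chi, and Tmed5 (1.79-fold) and Ergic1 (1.50-fold) toward Ly6Clo.

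**Figure D5:**
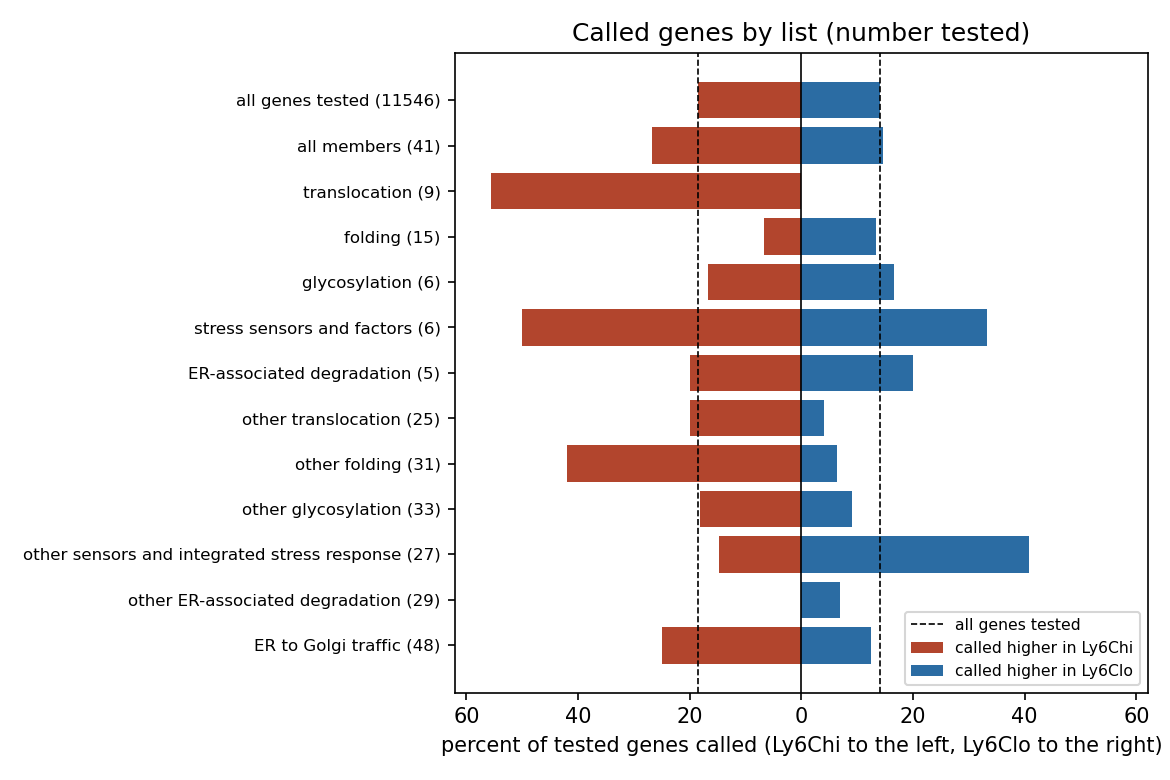
Percent of tested genes called higher in Ly6Chi (left, red) or higher in Ly6Clo (right, blue) for the ER genes by role and for the wider lists, with the number tested in brackets; dashed lines mark 18.5% and 14.1%, the shares over all 11546 genes. Translocation genes have bars toward Ly6Chi alone. The wider list of sensors and integrated stress response, which also holds genes of cell death and other stress responses, reaches farthest toward Ly6Clo.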

How the data were processed

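Per the labels' protocols, RNA of sorted monocytes was amplified with a lengthened in vitro transcription (64 h in place of 4 h). The deposited table holds probe set intensity on a linear scale; how the authors normalized it is not given in the sources used here, and GCRMA and MAS5 are listed, without role or order, in the submitters' processing notes. Intensities were taken to log2 with no further normalization. A probe set was tested if it exceeded the median of all non-control values (81.9) in at least 4 of 8 arrays, which 22831 did.

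Differences were fitted across all tested probe sets with limma 3.58.1 in R 4.3.3 (lmFit, eBayes, no block), with Benjamini-Hochberg adjustment over all of them. Gene names came from the platform annotation. All members are accounted for; per-array values are given within each role for the 3 called genes that differed most toward either subset, for Hspa5, Hsp90b1 and all sensors and factors. In each wider list the 2 leading called genes per direction are named. Members and lists were chosen with earlier results of these data known. Promoter windows are RefSeq's (GRCm38.p6). The workflow was tested on simulated data with 50 probe sets changed by each of several sizes. It recovered 6% of those changed by 0.25 on the log2 scale and 82% of those changed by 0.5, and 12 of its 155 calls were false. The real data had far more calls, so these shares do not carry over directly. A gene that was not called is not thereby shown to be unchanged. The effect of 21 alternative settings is given at the end. The 4 samples of a subset are separate sorts, so p-values measure the spread between these sorts.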

Additional observations from a re-analysis of the deposited data

Results flagged for a closer look

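Among 82 groups of 4 arrays (41 genes in each subset), 6 had an array far from the other 3, and chance gives about 1 in 20 groups. In Ly6Chi, Ssr1 read 11.00 in replicate 1 where the others read 10.85 to 10.88, Ssr2 read 9.11 in replicate 4 (others 9.29 to 9.32), Pdia6 read 10.33 in replicate 4 (others 10.78 to 10.83) and P4hb read 11.78 in replicate 3 (others 11.70). In Ly6Clo, P4hb read 11.33 in replicate 2 (others 11.19 to 11.20) and Xbp1 read 12.55 in replicate 2 (others 12.44 to 12.45).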

How the results depend on the processing

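Of the 17 called genes, 9 kept their call and direction in each of the 21 alternative settings that could be computed for them: Sec61a1, Sec61b, Ssr2, P4hb, Stt3b, Ddit3, Eif2ak3, Edem1 and Derl2. The other 8 lost it in at least 1 setting, Calr only at an adjusted p under 0.01. No called difference changed sign except that of Ern1, which was 0.025 (adjusted p = 0.84) with its least variable probe set; the cause was not tested.

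Genes called higher in Ly6Chi, 11 in the main setting, numbered 7 to 12 when arrays were left out, 6 with only probe sets free of cross-matching marks in their names (fewer probe sets are tested there) and 7 at an adjusted p under 0.01. Genes higher in Ly6Clo, 6 in the main setting, numbered 3 at 0.01. Probe sets higher in Ly6Chi (21) numbered 10 to 21 without arrays (13 without Ly6Chi replicate 2 and 13 without Ly6Clo replicate 3) and 8 with unmarked probe sets or at 0.01; those higher in Ly6Clo (14) numbered 6 in each of these 2 settings. By role, translocation genes higher in Ly6Chi (5) numbered 3 with the least variable probe set and 2 with unmarked ones, of which Ssr2 has none. Folding genes higher in Ly6Chi (1) numbered 1 to 2 without arrays, 2 with array weights, averaged or least variable probe sets (Dnajc3 joined) and 0 with unmarked ones. Those higher in Ly6Clo (2) numbered 1 to 2 without arrays, 1 with no filter, averaged or least variable probe sets, and 0 with unmarked ones or at 0.01. P4hb, Calr and Hspa5 have no unmarked probe set, so the unmarked setting could not test their calls. Glycosylation genes higher in Ly6Chi (1) numbered 0 to 1 without arrays, 2 under quantile normalization, log2(value + 32), a trended robust variance or a filter on all 8 arrays (Stt3a joined), and 0 with unmarked probe sets or at 0.01. Sensors higher in Ly6Chi (3) numbered 1 to 3 without arrays and 1 with averaged or least variable probe sets or at 0.01; factors higher in Ly6Clo (2) numbered 1 to 2 without arrays and 1 at 0.01. Degradation genes higher in Ly6Clo (1) numbered 2 with array weights, averaged or least variable probe sets.

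Samples that share a number did not deviate together in every pair (correlations 0.27, 0.34, -0.03 and -0.10), so the number was not taken as a pairing. With the replicate block, 9 genes were higher in Ly6Chi and 6 higher in Ly6Clo, as the calls of Spcs1 (limma adjusted p = 0.075) and Atf6 (0.051) were lost; no other gene lost its call. Counts of probe sets have no value where probe sets were averaged or 1 was chosen by spread. Arrays give no depth, and 4 per subset left standard errors of 0.06 to 0.19 for these genes.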
